A study of Homo sapiens with 6 samples.

Results

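The miR-548 family was read out on microRNA arrays of untreated and cisplatin-treated HuH7 cells. HuH7 is an established line from a human liver cancer, and cisplatin is a platinum compound that forms crosslinks in DNA. Members were the human probes whose name, split at commas, begins with miR-548, whatever the letter, copy number or arm. They came to 66 of 2019 human probes on each array. Those 66 probes carried 72 miR-548 names, 22 of them ending in 5p, 22 ending in 3p and 28 naming no arm, because 5 probes stand for several names. The control group was HuH7 kept without the drug and the cisplatin group was HuH7 given 1 µg/ml of it, both for 24 h and both in MEM with fetal bovine serum. Each group had 3 samples of total RNA, and the labels do not say whether they came from separate cultures. The p-values below therefore reflect the spread among these RNA samples, part or all of which may be technical. The comparison asks which miRNAs differ after cisplatin.

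MicroRNAs are short RNAs cut from hairpin precursors, and a mature miRNA finds its target mRNAs mainly through its seed, the stretch near its 5′ end. The miR-548 family is primate-specific and arose from MADE1, a short palindromic DNA transposon whose copies fold into a hairpin once transcribed. Each copy that landed in a transcribed region could become a separate miRNA gene, so the family is large, scattered over the genome and very similar in sequence, and its members are known as weakly expressed in most tissues.

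The RefSeq annotation of GRCh38.p14 lists 73 gene symbols that begin with MIR548, on 22 chromosomes. Of these symbols 47 (64.4%) lie inside the span of a protein-coding gene. Some share the same position, MIR548C with MIR548Z, MIR548D1 with MIR548AA1 and MIR548D2 with MIR548AA2, so the distinct positions are fewer. RefSeq mature sequences were found by name for 42 of the 66 probes. The sequences below are those of some members named in the results and of miR-603, which is not a member. The seed (bases 2 to 8) is in capitals. No sequence was found by name for miR-548a-3p and miR-548ay-5p, which the results also name.
miR-548w: aAAAGUAAcugcgguuuuugccu
miR-548ak: aAAAGUAAcugcgguuuuuga
miR-548as-5p: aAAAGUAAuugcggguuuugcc
miR-548b-5p: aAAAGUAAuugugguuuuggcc
miR-548aq-5p: gAAAGUAAuugcuguuuuugcc
miR-548k: aAAAGUACuugcggauuuugcu
miR-548x-3p: uAAAAACUgcaauuacuuuc
miR-548aq-3p: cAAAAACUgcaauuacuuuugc
miR-548b-3p: cAAGAACCucaguugcuuuugu
miR-548c-3p: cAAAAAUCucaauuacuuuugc
miR-603: cACACACUgcaauuacuuuugc

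In GRCh38.p14 miR-548w lies at chr16:26025246-26025268 on the + strand, inside the span of HS3ST4. miR-548ak lies at chr10:12130792-12130812 on the - strand, inside SEC61A2. The arms of MIR548B lie at chr6:119069098-119069119 (5p) and chr6:119069062-119069083 (3p) on the - strand, inside FAM184A. The arms of MIR548AQ lie at chr3:185767883-185767904 (5p) and chr3:185767847-185767868 (3p) on the - strand, inside IGF2BP2. miR-548k lies at chr11:70283986-70284007 on the + strand, inside PPFIA1, and miR-548c-3p at chr12:64622569-64622590 on the + strand, inside RASSF3. The annotation used gives gene spans only, so exon and intron were not assigned.

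The 42 sequences held 27 different seeds, of which 5 were shared and 22 belonged to 1 probe each. The largest group was AAAGUAA, with 9 probes (miR-548ab, miR-548ak, miR-548ap-5p, miR-548aq-5p, miR-548ar-5p, miR-548as-5p, miR-548b-5p, miR-548w and miR-548y). The next was AAAAACU, with 5 (miR-548ah-3p, miR-548aj-3p, miR-548am-3p, miR-548aq-3p and miR-548x-3p). Compared position by position from base 1, the 36 pairs of the AAAGUAA group differed at 1 to 6 bases, with a median of 3. miR-548w and miR-548ak differed at 1 of the 21 bases they have in common. The sequences were 18 to 23 bases long and held 4 to 12 G or C bases.

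Both arms of a miR-548 hairpin mirror each other, as the hairpin of MIR548AS shows (chr13:92490163-92490220, + strand, GRCh38.p14, inside GPC5, both mature arms in capitals).
MIR548AS: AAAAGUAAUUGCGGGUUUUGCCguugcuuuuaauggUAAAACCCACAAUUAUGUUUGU
In a local alignment of the 5p arm with the reverse complement of the 3p arm, 16 of 19 aligned bases were complementary in MIR548AS, 16 of 18 in MIR548AR and 18 of 19 in MIR548AT. The 7 letters AGUAAUU were present in 8 of the 42 members and their reverse complement AAUUACU in 7 others, searched on the mature strand only. Among the 2315 other human mature names in the same table, 3 held the former (0.130%) and 1 the latter (0.0432%). That 1 was miR-603, which is also related to MADE1 and is printed above.

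Each array carried 3200 spots, with 1 spot per human probe, 925 blank spots, 24 spots named Negative Control and 90 spots named No Probe. What the Negative Control and No Probe spots carry is not given in the sources used here. A spot counted as above the blank limit where its foreground, the median pixel intensity, exceeded the blank mean of that array by more than 2 blank SD. This limit was 220, 239.8 and 228 intensity units on control arrays 1 to 3 and 209, 247 and 227 on cisplatin arrays 1 to 3. Between 329 and 738 of the 2019 human probes exceeded them, fewest on cisplatin array 2, whose brightest blank spot read 575 and whose limit was the highest. The miRNAs that mark hepatocytes (miR-122-5p, miR-192-5p, miR-194-5p and miR-148a-3p) were above the limit on all 6 arrays, with foregrounds from 319 to 5169. None of the 4 blood, 3 muscle and 2 neural markers was above it on all 6, and their foregrounds ran from 182 to 268. miR-126-3p of endothelium and miR-143-3p and miR-145-5p of stroma were, at 243 to 346. The number of arrays limits the precision of every value here.

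The miR-548 probes read at the level of the Negative Control spots. Their median foreground was 213.5, 225 and 221 on control arrays 1 to 3 and 196, 221.5 and 214 on cisplatin arrays 1 to 3. The Negative Control spots had medians of 212, 221 and 214.5 on the control arrays and 195.5, 223.5 and 216 on the cisplatin arrays. On each array the medians of both kinds thus lay within 6.5 units of each other, with the family higher on 4 arrays and lower on 2. The family stood 9.0 to 17.5 units above the median of the blank spots on every array, as the Negative Control spots did by 8.5 to 16 units. The No Probe spots had a higher median than the family on 5 of 6 arrays, all but control array 1. The lowest miR-548 reading of all was 167 and the highest was 255, and 0 readings exceeded the brightest No Probe spot of their array. The brightest Negative Control spot was exceeded by 0, 0 and 2 members on control arrays 1 to 3. On cisplatin arrays 1 to 3 it was exceeded by 2, 1 and 1.

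**Figure D1:**
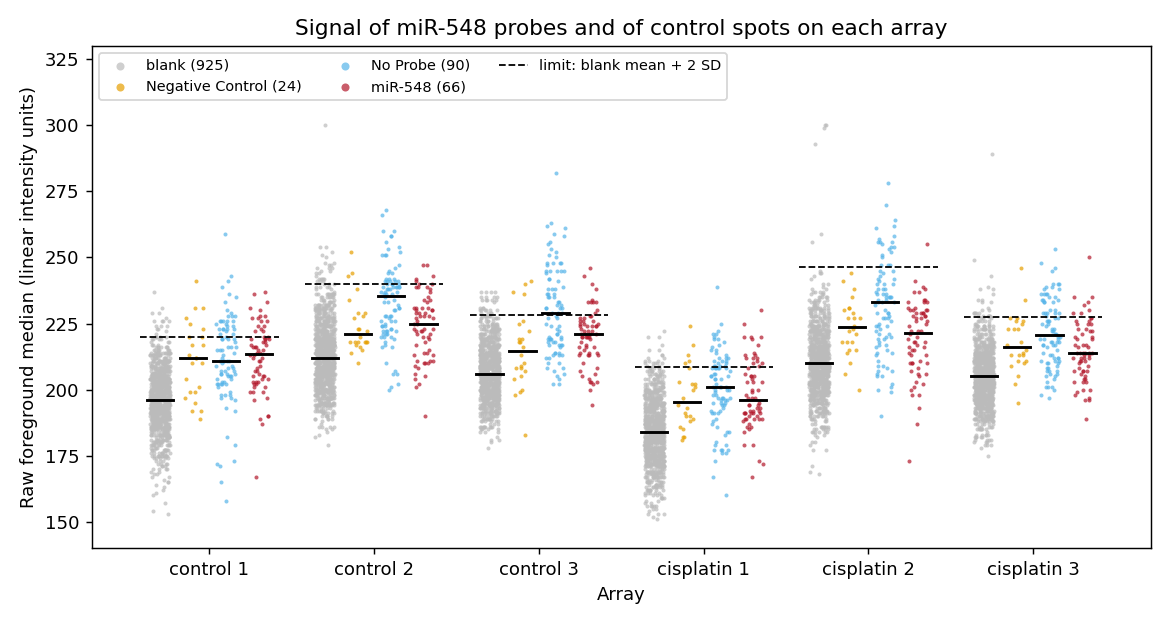
Raw foreground (vertical axis, linear intensity units) of every blank, Negative Control, No Probe and miR-548 spot on the 6 arrays, with medians as solid bars and the blank limit as a dashed line. The 3 blank readings above 300 units are drawn at 300, and the miR-548 probes lie between 167 and 255, inside the range of the No Probe spots, 158 to 282.

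Counted against the blank limit, 16, 7 and 11 of the 66 miR-548 probes were above it on control arrays 1 to 3. On cisplatin arrays 1 to 3 they were 17, 1 and 8. These are 24.2%, 10.6% and 16.7% of the family in control and 25.8%, 1.52% and 12.1% in cisplatin arrays. Over all human probes the shares were 34.8%, 24.8% and 36.6% in control and 35.3%, 16.3% and 31.8% in cisplatin arrays. The family's share thus lay below that of all human probes on each array. Among the Negative Control spots the shares were 25%, 12.5% and 16.7% in control and 20.8%, 0% and 8.33% in cisplatin arrays. The family's share was thus within 5 percentage points of theirs on each array. The mean count was 11.3 ± 4.51 for the control arrays and 8.67 ± 8.02 after cisplatin (SD, n = 3 each), a difference smaller than the spread within either group. The cisplatin mean was 4.5 without cisplatin array 1, 12.5 without array 2, which is above the control mean, and 9.0 without array 3.

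Most miR-548 probes exceeded the limit on 1 array or on none. Of the 66 probes, 28 exceeded it on no array, 23 on 1, 10 on 2, 3 on 3 and 2 on 4, and 0 did on 5 or 6. The share above it on at least 1 array was 57.6%, against 69.1% of all human probes and 58.3% of the Negative Control spots. Above it on all 6 arrays were 0 of 66 miR-548 probes and 243 of the 1953 other human probes (12.4%). Of the 38 probes above the limit anywhere, 16 were so on control arrays only, 10 on cisplatin arrays only and 12 on both. Of the 1358 other human probes above it anywhere, these counts were 423, 253 and 682. Of the 14 such Negative Control spots they were 7, 2 and 5. At this limit control-only spots thus outnumbered cisplatin-only spots in all of these sets. The order depended on the limit. Over the other human probes it was kept with 3 blank SD (196 control-only and 136 cisplatin-only). It was reversed when spots were taken over their local background (179 and 217).

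**Figure D2:**
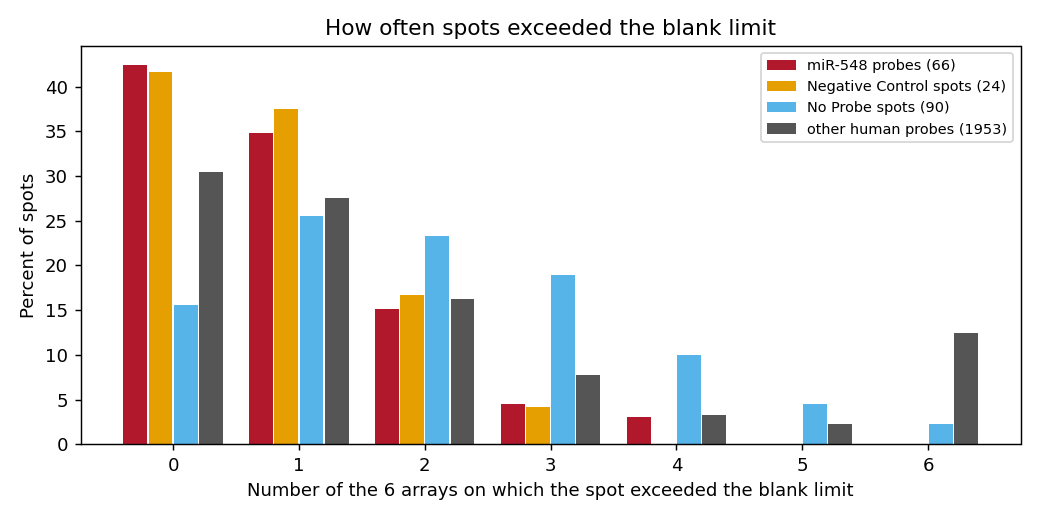
Percent of spots (vertical axis) by the number of arrays, 0 to 6, on which they exceeded the blank limit, for miR-548 probes, Negative Control spots, No Probe spots and the other human probes. The miR-548 bars run close to those of the Negative Control spots, with 42.4% and 41.7% at 0 arrays, while 12.4% of the other human probes stand at 6.

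The order of the probes within the family also varied from array to array. Over the 66 probes the correlation of log2 foreground between arrays had a median Pearson r of 0.089 over the 15 pairs of arrays (range -0.042 to 0.45, median Spearman rho 0.075). Over the 925 blank spots the median r was 0.050, and over the 595 other human probes that exceeded the limit on no array it was 0.098. Over all 1953 other human probes it was 0.98, where the brightest probes carry most of the variance, and the median rho was 0.46. These correlations are across spots that share a hybridisation, and they describe the arrays without a test.

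miR-548a-3p and miR-548w exceeded the limit most often, on 4 arrays each. miR-548a-3p read 236, 228 and 240 on control arrays 1 to 3 and 220, 239 and 233 on cisplatin arrays 1 to 3, above the limit on 2 arrays of each group. Its groups overlapped, and its normalized log2 difference, cisplatin minus control, was -0.032 (SE 0.10). miR-548w read 228, 240 and 233 in control and 212, 231 and 203 in cisplatin arrays. It was above the limit on 3 of 3 control arrays, on array 2 by less than 1 unit, and on 1 of 3 cisplatin arrays, and its groups overlapped between 228 and 231.

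miR-548b-3p, miR-548as-5p and miR-548c-3p exceeded it on 3 arrays each. miR-548b-3p read 216, 247 and 224 in control and 230, 241 and 235 in cisplatin arrays, and was above the limit on control array 2 and on cisplatin arrays 1 and 3. miR-548as-5p read 224, 209 and 233 in control and 208, 255 and 221 in cisplatin arrays, with the highest reading of the whole family on cisplatin array 2, the only miR-548 probe above the limit there. miR-548c-3p read 226, 210 and 229 in control and 225, 234 and 226 in cisplatin arrays. For these 3 probes the log2 differences were 0.26 (SE 0.16), 0.16 (SE 0.15) and 0.14 (SE 0.15), and in each the groups overlapped.

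miR-548ak, which differs from miR-548w at 1 of 21 shared bases, read 199, 204 and 215 in control and 204, 229 and 225 in cisplatin arrays and exceeded the limit on 0 of 6. Within the AAAGUAA group, 6 of 9 probes exceeded the limit on at least 1 array and 4 was the largest number of arrays. Of all human probes 69.1% exceeded it on at least 1 array, and of the Negative Control spots 58.3%. At this signal the levels of different probes were not ranked by sequence.

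The 12 members named for their mean normalized log2 signal, which is taken over the local background, lay between 6.50 and 6.69. Most were not above the blank limit on most arrays, so no order among them is given. miR-548k was above the limit only on control array 1, and read 227, 239 and 208 in control and 200, 228 and 214 in cisplatin arrays. The probe for miR-548c-5p, miR-548o-5p and miR-548am-5p was above the limit on 0 of 6 arrays, with readings of 213, 234 and 206 in control and 186, 224 and 204 in cisplatin arrays. miR-548b-5p read 216, 243 and 223 in control and 191, 225 and 216 in cisplatin arrays, above the limit on 1 control array.

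The other 6 of the 12 members with the highest mean normalized signal read between 190 and 243. miR-548ae and the probe for miR-548aa and miR-548t-3p were above the limit on 2 arrays and 1 array. miR-548l, miR-548al, miR-548u and miR-548az-3p were above it on none.

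**Figure D3:**
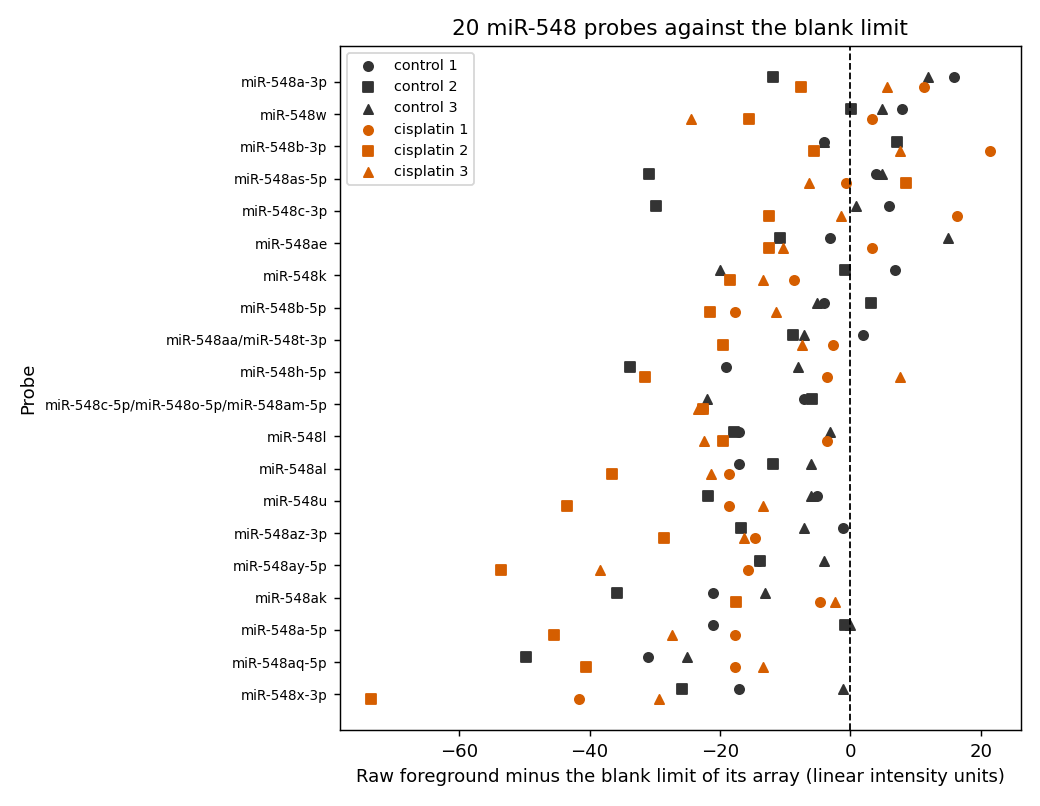
Raw foreground minus the blank limit of the same array (horizontal axis, linear intensity units) for 20 miR-548 probes, with control arrays in grey and cisplatin arrays in orange, and the limit at 0. Only miR-548a-3p and miR-548w lie right of the limit on 4 arrays, and 10 of the 20 probes lie right of it on none.

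Whether cisplatin changed any miR-548 miRNA could be tested for 1 of the 66 probes. A probe was tested where it exceeded the blank limit on all 3 arrays of at least 1 group, as 324 of the 2019 human probes did (16%), and miR-548w was the only one of the family. It entered only through the control arrays, where it was high, so the filter itself favours a lower cisplatin value. Its difference was -0.20 on the normalized log2 scale (SE 0.15), with means of 6.66 ± 0.16 for control and 6.47 ± 0.24 for cisplatin (SD, n = 3 each), and it did not pass (limma adjusted p = 0.619). Over all tested probes 1 of 324 passed at an adjusted p under 0.05 (0.309%). Slide position here means the number under the header Cell in each scanner file, and this reading of the header is an inference. With slide position as a random block 47 of 324 passed, miR-548w not among them (limma adjusted p = 0.224). Each slide position held arrays of a single group, so this block cannot correct the group difference for position. No conclusion is drawn from those 47. With 75th percentile scaling 3 passed and with cyclic loess 4. None passed with the replicate number as a block (57 at an unadjusted p under 0.05) or when any 1 array was left out (46 to 86). Leaving out 1 array made 4 members testable without control array 2, 2 without control array 3 and 5 without cisplatin array 2, since 2 arrays of that group then sufficed, and 0 of them passed.

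Without the filter, the limma fit covered all 66 members, and 0 of 66 passed, as did 0 of all 2019 probes (0%). The smallest adjusted p among the members was 0.941. At an unadjusted p under 0.05 stood 4 of 66 (6.06%), against 4.8% of all human probes. They were miR-548x-3p and miR-548ay-5p on the lower side and miR-548ak and miR-548aq-5p on the higher side. All 4 were below the blank limit on all 6 arrays, so no fold is given for them. miR-548x-3p read 203, 214 and 227 in control and 167, 173 and 198 in cisplatin arrays, all 3 cisplatin readings below all control readings. miR-548ay-5p read 206, 226 and 224 in control and 193, 193 and 189 in cisplatin arrays, again without overlap. miR-548aq-5p read 189, 190 and 203 in control and 191, 206 and 214 in cisplatin arrays, which overlap. Also among the 3 largest differences in each direction were miR-548h-5p, at 201, 206 and 220 in control and 205, 215 and 235 in cisplatin arrays, and miR-548a-5p, at 199, 239 and 228 in control and 191, 201 and 200 in cisplatin arrays. The normalized signals of the groups did not overlap for 11 of the 66 members (16.7%), 7 lower and 4 higher after cisplatin, against 10.5% of all human probes.

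The median difference of the family was slightly below that of all human probes, with 0 members past the test. Of the 66 members 42 had a negative log2 difference (63.6%), against 51.5% of all human probes, and the median was -0.038, against -0.0041 over all human probes. By arm, 12 of 18 probes named 5p, 12 of 20 named 3p and 18 of 28 of the others were negative. In raw units, the median of the family minus the median of the other human probes was -0.5, -2.0 and -2.0 on control arrays 1 to 3 and -6.0, -4.5 and -5.0 on cisplatin arrays 1 to 3. The means were -1.5 ± 0.866 and -5.17 ± 0.764 units (SD, n = 3 each) and the groups did not overlap. The family minus the Negative Control spots did not overlap between the groups either, at 4.0 ± 2.50 and -1.17 ± 1.44 units. Nor did the family minus the blank spots, at 15.2 ± 2.25 and 10.8 ± 1.61 units. The family minus the No Probe spots overlapped between the groups, at -5.33 ± 6.90 and -7.67 ± 3.40 units. The Negative Control spots minus the other human probes also overlapped between the groups, at -5.5 ± 3.28 and -4.0 ± 2.18 units. By the Cell number, read here as slide position, control arrays lay at 1 and 3 and cisplatin arrays at 2 and 4. Group and this position therefore cannot be told apart. No p is given for the family median, since its members were chosen together. Without cisplatin array 1 the median log2 difference was -0.071.

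**Figure D4:**
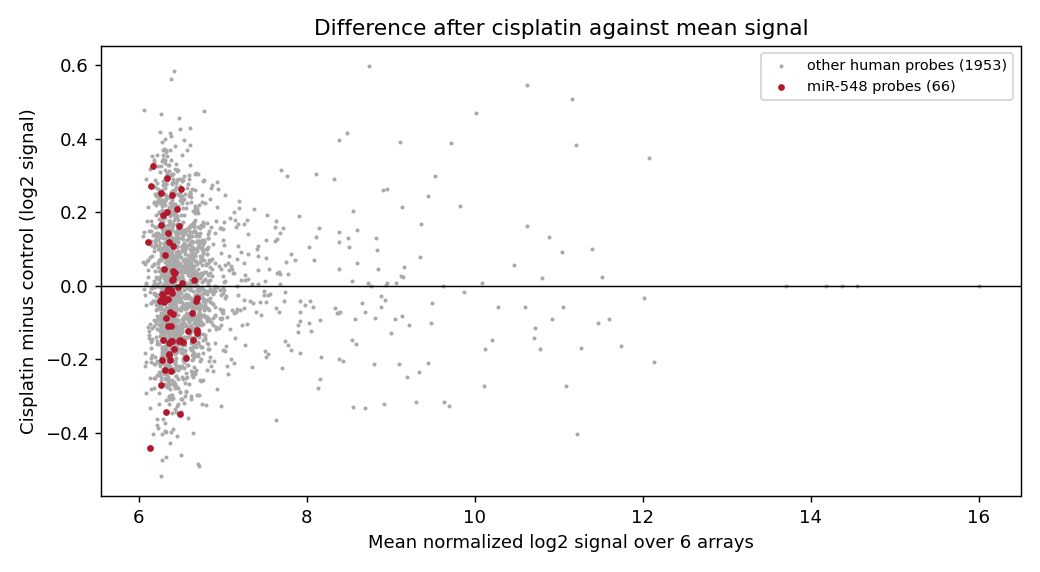
Cisplatin minus control in normalized log2 signal (vertical axis) against mean normalized log2 signal over 6 arrays (horizontal axis) for the 66 miR-548 probes and the 1953 other human probes. The family lies between 6.10 and 6.69 on the horizontal axis, at the dim end of a range that reaches 16.0, with differences from -0.44 to 0.33.

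The other miRNAs related to MADE1 also read near the limit. The 4 probes for miR-570, miR-579 and miR-603, read between 198 and 250, and 0 of them exceeded the blank limit on all 6 arrays. Of these, 1 probe is shared by miR-570-5p and miR-548ai and is counted in the family too. miR-579 was above the limit on 3 of 3 control arrays and 0 of 3 cisplatin arrays, so it too entered the test only through the control arrays, and it did not pass (limma adjusted p = 0.276). Among miRNAs related to other repeats, a part was bright. Of 10 probes related to the L2 element, 5 exceeded the limit on all 6 arrays, both arms of miR-28 and of miR-151a and also miR-151b, with miR-151a-5p reading from 534 to 825. Of 11 probes related to Alu elements, 2 did, miR-1285-3p (245 to 272) and miR-1273g-3p (3540 to 4875), and the lowest reading of the other 9 was 162. In these lists 0 of 10 tested probes passed, against the 0.309% given above.

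The authors' deposited table lists values for part of the probes of each array. It holds 31, 15 and 26 of the 66 members for control arrays 1 to 3 and 23, 17 and 19 for cisplatin arrays 1 to 3. These are 47.0%, 22.7% and 39.4% of the family in control and 34.8%, 25.8% and 28.8% in cisplatin arrays. Of all human probes 48.9%, 34.6% and 48.0% were listed in control and 46.2%, 41.2% and 43.3% in cisplatin arrays. Over all human probes the listed ones were on every array the same probes that exceed a limit computed here from blank spots trimmed by 5% at each end. The table lists 2 members on all 6 arrays, miR-548b-3p and miR-548ar-3p, and 5 on none. In the units of the authors' deposited table, where the median listed probe of each array is 31, the brightest listed member reached 31.9 to 46.3.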

How the data were processed

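The authors deposited 6 scanner files of linear intensity, which per the file headers is the median and mean pixel brightness for every spot and its surroundings. Hy5 was the dye per the labels. The scanner model was not given in the sources used here. Another table, processed by the authors, holds linear intensity scaled per array and was used only as an alternative. Spot medians were corrected for local background by normexp with an offset of 50. Human probes were then quantile-normalized and fitted on the log2 scale with lmFit and eBayes in limma 3.58.1 (R 4.3.3), with Benjamini-Hochberg adjustment over all tested probes. The offset shrinks differences of dim probes. The steps were tested on simulated data. Figures used matplotlib 3.10.9.

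Same-numbered samples deviated together over the tested probes (r = 0.44, 0.24 and 0.20), though control 3 correlated as well with cisplatin 2 (0.23), and less over the 66 members (0.22, 0.12 and 0.023, with 0.18 for control 2 and cisplatin 3). All 3 exceeded 0.1 over the tested probes, but the main fit did not pair the samples. The replicate number was fitted as a block only as an alternative. With that block 0 of 324 tested probes passed, and miR-548w had a limma adjusted p of 0.281. Members and lists were chosen with earlier results of these data known. Named were tested members, the 12 with the highest mean log2 signal, the 3 largest differences each way and those above the limit on at least 3 arrays, 20 in all. RefSeq sequences matched 63.6% of the members, under the 80% needed, so the planned comparison of signal with GC content is void. Other settings tried are given at the end.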

Additional observations from a re-analysis of the deposited data

How the results depend on the processing

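The count of miR-548 probes that passed was 0 in the main analysis and under every alternative tried, also with the replicate block (1 tested, limma adjusted p = 0.281) and at an adjusted p under 0.10, but only 0 to 5 members were tested in each filtered fit, which says little about stability. The replicate block changed no call for a member. With slide position as a random block the estimated correlation within positions was negative (-0.62) and 47 of 324 probes passed, 25 of them higher, against 1 in the main analysis. Positions lay within groups, so this block cannot correct the group difference for position. Over all tested probes 0 to 4 passed at an adjusted p under 0.05 under the alternatives other than this block. At an adjusted p under 0.10, 5 of 324 passed in the main fit. The number of members above the limit depended on the limit. The mean over control arrays was 11.3 (8.67 over cisplatin arrays), and 2.0 (1.0) with 3 SD, 24 (19.7) with trimmed blanks, 4.33 (2.33) against the local background, 7.33 (5.67) with pixel means, 1.0 (1.33) with Negative Control spots and 0 (0.667) with No Probe spots as the reference, the last 2 chosen after seeing the data. Members above it on at least 1 array were 38, and 8, 61, 14, 30, 6 and 2 in the same order. On all arrays of a group it was 1, and 0, 5, 0, 0, 0 and 0. Leaving out 1 array gave control means of 9.0 to 13.5, cisplatin means of 4.5 to 12.5, 29 to 38 members on at least 1 array and 1 to 5 on all arrays of a group. The median log2 difference of -0.038 was -0.067 with plain subtraction, -0.013 with the 75th percentile, -0.016 with pixel means and -0.071 to -0.034 when 1 array was left out. It was negative and below that of all probes in the 15 alternatives that could move it. For these shifts the cause was not tested.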
